A study of Sus scrofa with 4 samples.

Results

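Fatty acid and retinoid binding proteins and the nuclear receptors they serve were examined in pig (Sus scrofa) embryos at 4 cells. The 9 genes named for this were the binding proteins FABP3, FABP5, CRABP1 and CRABP2 and the receptors RARA, RARG, RXRA, RXRB and PPARD. Members were found by their symbol in the name column of the deposited transcript table, where 7 of the 9 had a row, of 25560 gene names in all. RARG and RXRA had no row under their symbol or under a RefSeq transcript of theirs and were not analysed here. The 9 genes were chosen by their FPKM in this contrast being already known: FABP5 and CRABP2 were selected on the size of their difference between the groups, and the others as their relatives and receptors. Their differences between groups are therefore given as a description, without a test.

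In 2 libraries the embryos were labelled TFAP2C KD. These had been injected in the cytoplasm with small interfering RNA directed at the transcription factor TFAP2C. In the other 2 the embryos were labelled Control, and the labels do not say what the control embryos received. Neither the number of embryos pooled in a library nor whether replicates came from separate collections is stated, so the spread given here is that between 2 libraries per group and may be technical. An exact permutation test of 2 against 2 cannot go below p = 0.333, two-sided. The targeted gene did not settle which libraries carried the knockdown. TFAP2C was listed at 0.448 and 3.11 FPKM in labelled knockdowns 1 and 2, against 14.7 and 7.78 FPKM in labelled controls 1 and 2. FPKM is the number of fragments scaled to transcript length and library size. Coverage (mean read depth per base) divided by FPKM is a constant of each library, and the TFAP2C row carried 6.69 and 7.03 under labelled knockdowns 1 and 2, against 6.07 and 8.83 under labelled controls 1 and 2. These are the constants of the opposite libraries, which were 6.07 and 8.83 for labelled knockdowns 1 and 2, against 6.69 and 7.03 for labelled controls 1 and 2. No other gene with at least 1 FPKM departed from its library's constant by more than 0.001 in relative terms. All 7 members carried the constants of their own libraries wherever they were above 0. Read by its constants, the TFAP2C row would place 14.7 and 7.78 FPKM in labelled knockdowns 1 and 2, and the lower values in the labelled controls. Whether that row or the labels were exchanged was not tested. Because the TFAP2C row does not check the labels, the groups are called labelled knockdown and labelled control. Every direction given below rests on those labels.

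Fatty acid and retinoid binding proteins are small cytosolic proteins of a single family that fold around a fatty acid or a retinoid and carry it through the cell. FABP5 can deliver fatty acids, and by some accounts retinoic acid, to PPARD in the nucleus, and CRABP2 delivers retinoic acid to the retinoic acid receptors. CRABP1 holds retinoic acid in the cytosol and is linked to its breakdown, and FABP3 carries fatty acids for oxidation in heart and muscle. RARA, RARG and PPARD are ligand-activated transcription factors that bind DNA as pairs with an RXR. Pig oocytes and early embryos are known for their large store of lipid droplets.

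Markers of the oocyte and early embryo were present in every library. Of 15 listed, 14 had a row and were tested; 3 fell, none rose, 13 had a negative difference and the median log2 difference was -0.59. They summed to 1808 and 2235 FPKM in labelled knockdowns 1 and 2, against 4214 and 4194 FPKM in labelled controls 1 and 2. BMP15, an oocyte growth factor, had 627 and 624 FPKM in labelled knockdowns 1 and 2, against 765 and 851 FPKM in labelled controls 1 and 2. The calls were the oocyte linker histone H1FOO (log2 difference -1.96), the meiotic kinase MOS (-1.89) and the oocyte kinase WEE2 (-2.13), with adjusted p of 0.0256, 0.0188 and 0.0179 (limma, Benjamini-Hochberg). These calls were lost without labelled knockdown 1, labelled knockdown 2 or labelled control 1. They were also lost in limma with the replicate number as a block (adjusted p = 0.0511 to 0.0692). The same held with no filter on low values (0.13 to 0.163) and on transcript rows (0.0689 to 0.487). Of 24 cumulus and granulosa markers 19 had a row, with sums of 42.4 and 22.3 FPKM in labelled knockdowns 1 and 2, against 21.0 and 15.3 FPKM in labelled controls 1 and 2. AMH and PTGS2 were listed at 0 in every library, the FSH receptor stayed at or below 0.059 FPKM, and INHBA and FST, which oocytes also express, were the highest members in the controls. Without INHBA and FST the other 17 summed to 31.1 and 15.1 FPKM in labelled knockdowns 1 and 2, against 3.28 and 5.63 FPKM in labelled controls 1 and 2. Leaving these genes out was not planned. Both had negative log2 differences (-0.42 for INHBA and -0.45 for FST), so their removal widens the gap between the groups. With AREG also left out, which was decided with its values in view, the sums were 10.8 and 8.64 FPKM in the labelled knockdowns and 3.28 and 5.63 FPKM in the labelled controls. Both labelled knockdowns lay above both labelled controls for AREG, VIM, LUM, COL1A1, HSD3B1 and the FSH receptor, and below them for INHBA and COL4A1. Over all tested genes they lay above for 24.7% and below for 35.8%, and nothing is read from the marker names. LUM, COL1A1, HSD3B1, the FSH receptor and COL4A1 were untested and stayed at or below 0.447 FPKM. VIM had 2.81 and 0.556 FPKM in labelled knockdowns 1 and 2, against 0.040 and 0.325 FPKM in labelled controls 1 and 2. TNFAIP6 was high in labelled knockdown 1 alone (4.32 FPKM) and DCN in labelled knockdown 2 alone (3.67 FPKM). Of the 6 tested, the growth factor AREG was the one called: it stood at 20.3 and 6.42 FPKM in labelled knockdowns 1 and 2 and was listed at 0 in both labelled controls (limma, Benjamini-Hochberg adjusted p = 0.0211). That call was lost without labelled knockdown 1 or 2 and without labelled control 1. It was also lost in limma with no filter on low values (adjusted p = 0.163) and on transcript rows (0.119). For blood, 10 of 12 markers had a row, with sums of 4.71 and 6.66 FPKM in labelled knockdowns 1 and 2, against 5.59 and 8.62 FPKM in labelled controls 1 and 2. For sperm, 6 of 9 markers had a row, with sums of 12.3 and 4.46 FPKM in labelled knockdowns 1 and 2, against 3.05 and 6.36 FPKM in labelled controls 1 and 2, nearly all of it ACRV1. The 8 of 10 trophectoderm markers with a row stayed between 1.41 and 1.79 FPKM in sum, and none was tested. Singly, both labelled knockdowns lay above both labelled controls for TEAD4 and below them for GATA3 and TFAP2A, all at or below 0.528 FPKM. The 13 protein-coding genes of the mitochondrial genome took 39.9% and 26.9% of TPM (transcripts scaled to a fixed sum) in labelled knockdowns 1 and 2, against 18.5% and 24.1% in labelled controls 1 and 2. The part of the oocyte marker, cumulus marker and mitochondrial differences in the results below was not tested. In whole embryos, fewer cells of a type and less RNA per cell cannot be told apart.

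FABP5, the epidermal fatty acid binding protein (gene ID 574074, chromosome 4, 55277831 to 55282585, Sscrofa11.1), showed the second largest positive difference of the 9850 tested genes. It stood at 321 and 168 FPKM in labelled knockdowns 1 and 2, against 2.43 and 3.59 FPKM in labelled controls 1 and 2. Both labelled knockdowns lay far above both labelled controls, and labelled knockdown 1 was the higher of its pair. The read depth behind the row was 1947 and 1485 reads per base in the labelled knockdowns, against 16.2 and 25.2 reads per base in the labelled controls. The means were 244 ± 108 FPKM in the labelled knockdowns and 3.01 ± 0.821 FPKM in the labelled controls (SD, n = 2 each), 81.3 times as high in linear FPKM. The difference was 5.88 on the log2(FPKM + 1) scale (SE 0.39). In the labelled knockdowns FABP5 lay above 99.4% and 98.6% of all gene names by FPKM, against 72.4% and 75.9% in the labelled controls.

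CRABP2, the cellular retinoic acid binding protein that carries its ligand to the nucleus (gene ID 100155151, chromosome 4, 93388198 to 93393861, Sscrofa11.1), was near the floor of the labelled controls. It stood at 47.2 and 43.5 FPKM in labelled knockdowns 1 and 2, against 0.230 and 0.499 FPKM in labelled controls 1 and 2. The groups did not overlap, and the labelled knockdowns were close to each other. Read depth was 286 and 384 reads per base in the labelled knockdowns, against 1.54 and 3.51 reads per base in the labelled controls. The difference was 5.09 on the log2(FPKM + 1) scale (SE 0.28), ranked 15 of 9850 from the top. In linear FPKM the mean was 45.3 ± 2.63 FPKM in the labelled knockdowns and 0.365 ± 0.190 FPKM in the labelled controls (SD, n = 2 each), 124 times as high. That ratio rests on a control level of a few reads per base, and with a pseudocount of 0.1 the log2 difference was 6.67.

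FABP3, the heart-type fatty acid binding protein (gene ID 399532, chromosome 6, 87943003 to 87950708), was the most abundant of the 4 in the labelled controls. It stood at 31.5 and 19.1 FPKM in labelled knockdowns 1 and 2, against 8.60 and 10.2 FPKM in labelled controls 1 and 2. Labelled knockdown 1 was high and the groups did not overlap. The means were 25.3 ± 8.81 FPKM in the labelled knockdowns and 9.40 ± 1.13 FPKM in the labelled controls (SD, n = 2 each), a log2 difference of 1.30 (SE 0.34). It ranked 945 of 9850.

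CRABP1, the cytosolic retinoic acid binding protein (gene ID 100169745, chromosome 7, 47602316 to 47608865), hardly differed. It stood at 5.31 and 4.42 FPKM in labelled knockdowns 1 and 2, against 3.12 and 4.39 FPKM in labelled controls 1 and 2. Labelled knockdown 2 and labelled control 2 were nearly equal. The log2 difference was 0.31 (SE 0.30), about the size of its error. In TPM the groups overlapped, with 8.08 and 8.06 in the labelled knockdowns and 6.38 and 8.84 in the labelled controls.

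All 4 binding proteins passed the filter of a mean of 1 FPKM over the 4 libraries. CRABP2 passed it through the labelled knockdowns alone, with a mean of 45.3 FPKM there and 0.365 FPKM in the labelled controls. In FPKM both labelled knockdowns lay above both labelled controls for each of the 4. That held for 24.7% of all tested genes, while for 35.8% both labelled knockdowns lay below both labelled controls. In the fit over all 9850 genes, FABP5 and CRABP2 were 2 of 4 past an adjusted p of 0.05, which 6.57% of all tested genes passed, 5.11% as higher and 1.46% as lower (limma with Benjamini-Hochberg adjustment). Nothing is read from these counts, since the genes were chosen with this contrast known. With either labelled knockdown left out, limma called 0 genes of the whole table. At an unadjusted p under 0.05 it then had 978 higher and 811 lower without labelled knockdown 1, and 1413 higher and 1261 lower without labelled knockdown 2.

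**Figure D1:**
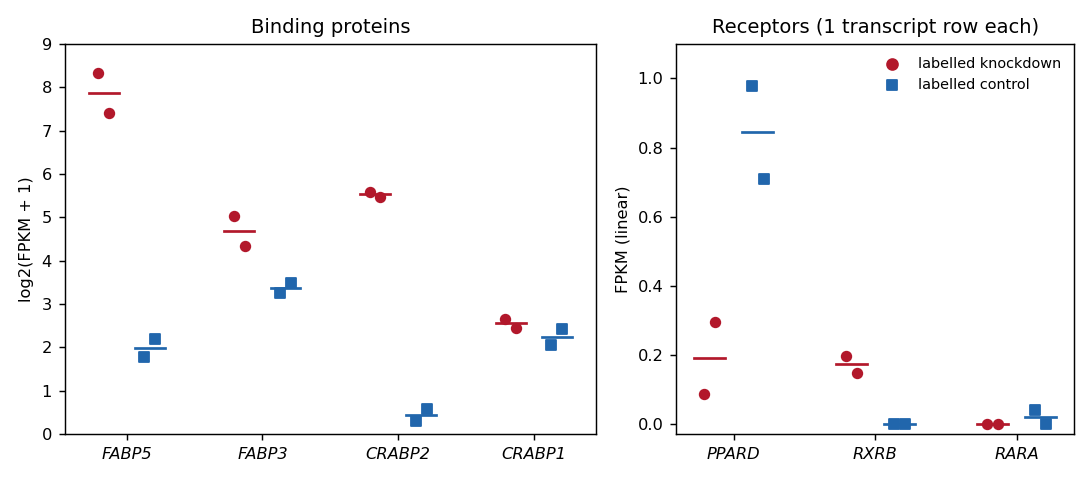
Levels of the members in each library. Left, log2(FPKM + 1) of the 4 binding proteins; right, FPKM of the 3 receptors with a row, on a linear axis; circles are labelled knockdowns, squares labelled controls and bars the mean of the 2 plotted values. FABP5 and CRABP2 are far apart between groups, FABP3 less so and CRABP1 hardly, and the receptors stay under 1 FPKM.

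The order of the binding proteins within a library differed between the groups. FABP5 and CRABP2 were selected on their difference between the groups, so the order, shares and ratios that follow are descriptions only. FPKM is per length, but a row can still understate its gene, so the order is that of the listed values. RPL3, a ribosomal protein gene, was listed at 0 in both labelled controls. The actin gene ACTB stood at 0.768 and 0.695 FPKM in labelled knockdowns 1 and 2, against 1.07 and 1.56 FPKM in labelled controls 1 and 2. In both labelled knockdowns the order was FABP5, CRABP2, FABP3, CRABP1, whereas in both labelled controls it was FABP3, CRABP1, FABP5, CRABP2. In the labelled controls the ranges of the neighbours CRABP1 and FABP5 overlapped, and in the labelled knockdowns no neighbouring ranges did. The sum of the 4 was 405 and 235 FPKM in labelled knockdowns 1 and 2, against 14.4 and 18.7 FPKM in labelled controls 1 and 2. FABP5 made up 79.2% and 71.5% of that sum in the labelled knockdowns and 16.9% and 19.2% in the labelled controls. FABP3 made up 7.79% and 8.12% in the labelled knockdowns and 59.8% and 54.6% in the labelled controls.

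Ratios within a library do not depend on how libraries are scaled to each other. FABP5 was 10.2 and 8.81 times FABP3 in labelled knockdowns 1 and 2, against 0.282 and 0.351 times in labelled controls 1 and 2. In the retinoid pair, CRABP2 was at 8.88 and 9.83 times CRABP1 in the labelled knockdowns and at 0.0737 and 0.114 times in the labelled controls. In FPKM neither FABP3 nor CRABP1 was lower in the labelled knockdowns, so the higher ratios came from FABP5 and CRABP2. The ratio of FABP5 to CRABP2 was closer between the groups, at 6.80 and 3.87 in the labelled knockdowns and 10.5 and 7.18 in the labelled controls.

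Receptor transcripts were scarce. The values below are those of a single row per gene, 1 of the 3 RefSeq transcripts of RARA, 1 of 4 of RXRB and 1 of 4 of PPARD, and fragments of other transcripts of these genes are not in them. None of the 3 reached the filter mean of 1 FPKM, so none was tested. Exact zeros can be failed estimates, since the ribosomal protein gene RPL3 was also listed at 0 in 3 libraries.

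PPARD, the fatty acid receptor that FABP5 is known to serve (gene ID 397297, chromosome 7, 31222533 to 31295221), had the highest mean of the 3 over the 4 libraries. It stood at 0.0869 and 0.295 FPKM in labelled knockdowns 1 and 2, against 0.979 and 0.709 FPKM in labelled controls 1 and 2. The groups did not overlap, and the labelled controls were the higher ones, opposite in sign to FABP5. Read depth was 0.528 and 2.60 reads per base in the labelled knockdowns, against 6.54 and 4.98 reads per base in the labelled controls. RXRB, the RXR partner found in most cell types (gene ID 100156801, chromosome 7, 25236005 to 25242842), had 0.196 and 0.147 FPKM in labelled knockdowns 1 and 2 and was listed at 0 in both labelled controls. With 1.19 and 1.30 reads per base in the labelled knockdowns, that row is close to the limit of detection in every library. RARA, the retinoic acid receptor alpha (gene ID 396709, chromosome 12, 22047449 to 22085759), was listed at 0 in both labelled knockdowns and in labelled control 2, and at 0.0387 FPKM in labelled control 1.

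Other nuclear receptors of the same kind were better covered. Of 14 listed, 13 had a row and 6 were tested; none passed the threshold and the median log2 difference was -0.66, beside -0.13 over all tested genes. RXRG, an RXR singled out after its values were seen, stood at 3.20 and 1.35 FPKM in labelled knockdowns 1 and 2, against 8.12 and 6.26 FPKM in labelled controls 1 and 2 (log2 difference -1.37, SE 0.38, limma with Benjamini-Hochberg adjusted p = 0.0881). RARB, a retinoic acid receptor whose gene is itself induced by retinoic acid, stood at 6.60 and 6.17 FPKM in labelled knockdowns 1 and 2, against 4.74 and 8.66 FPKM in labelled controls 1 and 2, with full overlap. PPARG, the adipocyte PPAR, stood at 5.62 and 14.2 FPKM in labelled knockdowns 1 and 2, against 14.8 and 13.0 FPKM in labelled controls 1 and 2, and labelled knockdown 1 was the low library. The oxysterol receptor NR1H2 stood at 4.24 and 4.79 FPKM in labelled knockdowns 1 and 2, against 11.4 and 11.5 FPKM in labelled controls 1 and 2 (log2 difference -1.18, SE 0.27, limma with Benjamini-Hochberg adjusted p = 0.0615).

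Of 15 coregulators of these receptors, all had a row and 11 were tested; 2 fell, none rose and the median log2 difference was -0.54. NCOA3, a coactivator of nuclear receptors, fell to 34.0 ± 4.41 FPKM in the labelled knockdowns, against 101 ± 28.7 FPKM in the labelled controls (SD, n = 2 each; log2 difference -1.52, SE 0.32, limma with Benjamini-Hochberg adjusted p = 0.0488). HDAC3, the deacetylase of the corepressor complex, fell to 0.556 and 0.811 FPKM in labelled knockdowns 1 and 2, against 3.91 and 3.25 FPKM in labelled controls 1 and 2 (log2 difference -1.44, SE 0.28, limma with Benjamini-Hochberg adjusted p = 0.0444). Both calls sat at the threshold. Leaving out any one of the 4 libraries ended them, with adjusted p from 0.0964 to 0.242 for NCOA3 and from 0.102 to 0.214 for HDAC3.

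Of 21 genes that make, store or break down retinoids, 18 had a row, 7 were tested, none passed and the median log2 difference was -0.27. ADH5, a widely expressed alcohol dehydrogenase, stood at 79.8 and 102 FPKM in labelled knockdowns 1 and 2, against 178 and 99.9 FPKM in labelled controls 1 and 2, with overlap. RDH10, which oxidises retinol to retinal, stood at 15.3 and 10.2 FPKM in labelled knockdowns 1 and 2, against 14.3 and 18.9 FPKM in labelled controls 1 and 2. RDH11, another retinol dehydrogenase, stood at 2.18 and 3.18 FPKM in labelled knockdowns 1 and 2, against 2.80 and 8.27 FPKM in labelled controls 1 and 2. The retinaldehyde dehydrogenases ALDH1A1, ALDH1A2 and ALDH1A3, which make retinoic acid, had rows under the filter and none was above 0.918 FPKM in any library.

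Of 14 genes known from other cells as retinoic acid targets, CRABP2 not counted, 13 had a row and 4 were tested. None passed and the median log2 difference was -0.14, beside the -0.13 over all tested genes. RARRES1 stood at 47.8 and 42.5 FPKM in labelled knockdowns 1 and 2, against 52.8 and 38.8 FPKM in labelled controls 1 and 2, with overlap. The homeobox gene MEIS2 stood at 1.05 and 1.14 FPKM in labelled knockdowns 1 and 2, against 2.30 and 2.43 FPKM in labelled controls 1 and 2 (log2 difference -0.68, SE 0.27, limma with Benjamini-Hochberg adjusted p = 0.171). DHRS3, HOXB1 and STRA8 were listed at 0 in all 4 libraries.

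Among 13 PPAR targets other than FABP3, 12 had a row and 8 were tested; 1 rose and the median log2 difference was -0.31. That gene was CPT1A, which admits long-chain fatty acids to the mitochondrion for oxidation. It stood at 2.24 and 2.39 FPKM in labelled knockdowns 1 and 2, and was listed at 0 and 0.401 FPKM in labelled controls 1 and 2 (log2 difference 1.49, SE 0.31, limma with Benjamini-Hochberg adjusted p = 0.0477). Without any one of the 4 libraries its adjusted p lay between 0.0698 and 0.199. CPT1A is also on the list of 27 fatty acid uptake and oxidation genes, of which 26 had a row and 15 were tested; it was the only call there, and the median was -0.38. CPT2, its partner on the inner mitochondrial membrane and singled out after its values were seen, stood at 0.462 and 0.729 FPKM in labelled knockdowns 1 and 2, against 2.08 and 2.26 FPKM in labelled controls 1 and 2 (log2 difference -0.99, SE 0.28, limma with Benjamini-Hochberg adjusted p = 0.0925). ACAA2, on both lists and likewise singled out, had the direction of CPT1A. It stood at 3.02 and 1.95 FPKM in labelled knockdowns 1 and 2, against 0.677 and 0 FPKM in labelled controls 1 and 2 (log2 difference 1.41, SE 0.37, limma with Benjamini-Hochberg adjusted p = 0.0819).

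Of 18 lipid droplet genes, 14 had a row, 3 were tested and none passed. The droplet coat protein PLIN2 stood at 20.1 and 11.1 FPKM in labelled knockdowns 1 and 2, against 26.3 and 14.7 FPKM in labelled controls 1 and 2, with overlap. ABHD5, the activator of the main triglyceride lipase, stood at 12.2 and 24.8 FPKM in labelled knockdowns 1 and 2, against 5.27 and 2.64 FPKM in labelled controls 1 and 2 (log2 difference 1.95, SE 0.45, limma with Benjamini-Hochberg adjusted p = 0.0625). The seipin gene BSCL2 stood at 2.16 and 2.69 FPKM in labelled knockdowns 1 and 2, against 3.33 and 3.77 FPKM in labelled controls 1 and 2.

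The other tested binding proteins and carriers of fatty acyl groups did not share the difference of FABP5 and CRABP2, which were chosen for its size. Of 16 listed, 12 had a row and 4 were tested, with no call and a median log2 difference of -0.56. Among the tested genes RBP2 alone belongs to the family of the members. It stood at 0 and 1.02 FPKM in labelled knockdowns 1 and 2, against 1.51 and 1.95 FPKM in labelled controls 1 and 2 (log2 difference -0.94, SE 0.41). DBI, which carries acyl-CoA esters, stood at 19.8 and 25.4 FPKM in labelled knockdowns 1 and 2, against 43.8 and 29.6 FPKM in labelled controls 1 and 2. ACBD3, a Golgi protein with an acyl-CoA binding domain, stood at 7.95 and 4.70 FPKM in labelled knockdowns 1 and 2, against 9.31 and 8.48 FPKM in labelled controls 1 and 2, and the sterol carrier SCP2 at 8.80 and 8.07 FPKM in labelled knockdowns 1 and 2, against 5.16 and 6.59 FPKM in labelled controls 1 and 2. Brain-type FABP7, under the filter and singled out after its values were seen, stood at 0.609 and 0.408 FPKM in labelled knockdowns 1 and 2, against 0.151 and 0.190 FPKM in labelled controls 1 and 2.

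**Figure D2:**
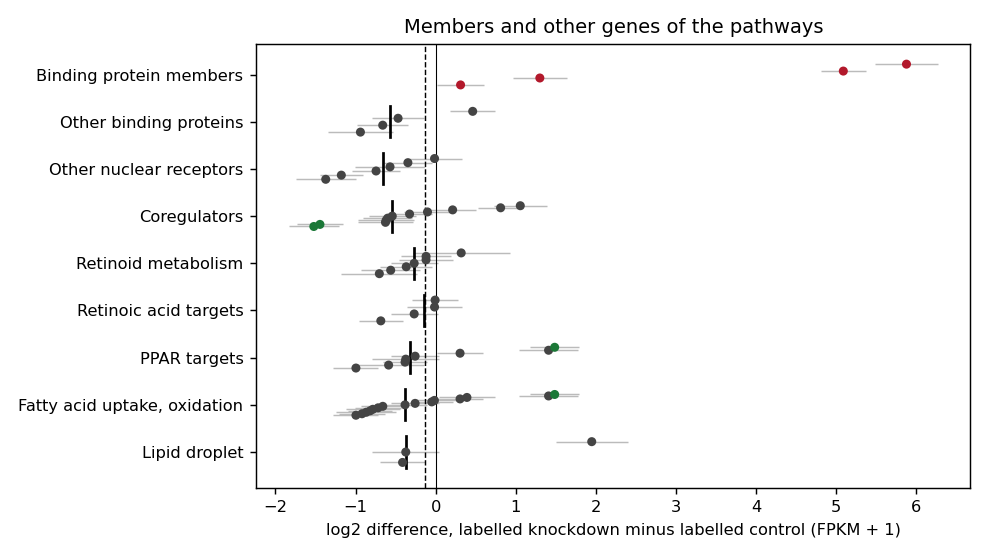
Log2 difference, labelled knockdown minus labelled control on the FPKM + 1 scale, of the binding proteins (red) and of the tested genes of each other pathway list (marker lists are not plotted); bars are the SE, short vertical lines list medians and the dashed line the median of all tested genes. Green points are the genes past an adjusted p of 0.05 (NCOA3, HDAC3 and CPT1A, the last on both fatty acid lists). No gene of the plotted pathway lists exceeds a difference of 1.95 (ABHD5), against 5.88 for FABP5 and 5.09 for CRABP2.

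**Figure D3:**
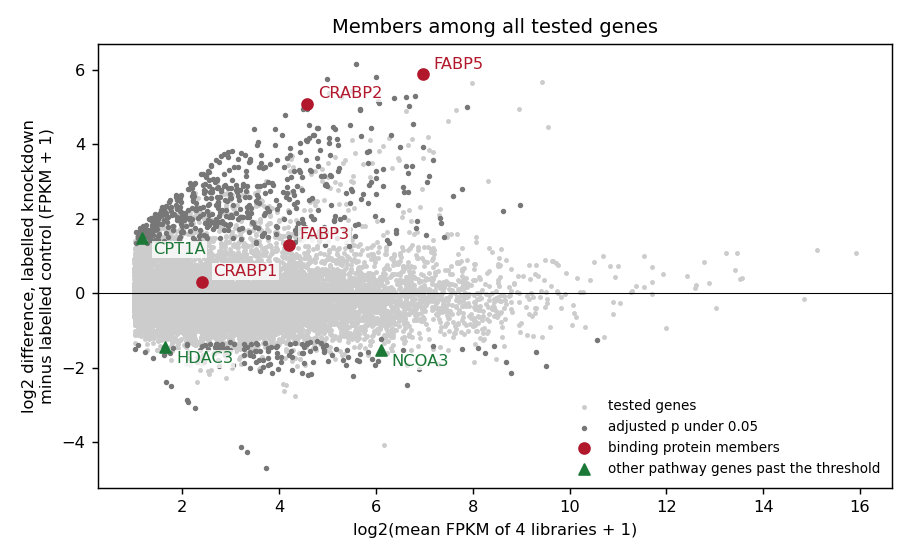
Log2 difference, labelled knockdown minus labelled control on the FPKM + 1 scale, against the log2 mean level of all 9850 tested genes, with genes past an adjusted p of 0.05 in dark grey. FABP5 and CRABP2 lie at the upper edge at 5.88 and 5.09, FABP3 at 1.30 and CRABP1 at 0.31.

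FABP5 and CRABP2 both lie on chromosome 4, and the genes around each were compared with them as a description chosen after the values were seen. Around FABP5, 11 of the 12 nearest annotated genes (6 on each side) had a row and 3 were tested, with log2 differences of -0.024 to 0.51 and none past the threshold. The transcription factor gene ZBTB10 stood at 98.9 and 94.2 FPKM in labelled knockdowns 1 and 2, against 67.3 and 67.7 FPKM in labelled controls 1 and 2. The untested neighbours of FABP5, the family member PMP2 among them, stayed at or below 0.835 FPKM. Of these, SLC10A5, PAG1, LOC102157450 and LOC110260268 had both labelled knockdowns above both labelled controls. Over all tested genes 24.7% had that order and 35.8% the opposite one, and nothing is read from the neighbours that had it. Around CRABP2 all 12 had a row and 4 were tested, with log2 differences of -0.82 to -0.38 and none past the threshold. ISG20L2, the nearest gene on the lower side of CRABP2, stood at 1.67 and 0.660 FPKM in labelled knockdowns 1 and 2, against 0.042 and 0.151 FPKM in labelled controls 1 and 2, under the filter, without overlap and in the direction of CRABP2. RRNAD1, beside it and lower still, had the same direction without overlap. NAXE, also untested, had the opposite one, at 0 and 0.475 FPKM in labelled knockdowns 1 and 2, against 1.39 and 1.82 FPKM in labelled controls 1 and 2. The tested IQGAP3 was likewise lower without overlap, at 0.646 and 1.95 FPKM in the labelled knockdowns and 2.74 and 3.06 FPKM in the labelled controls. Around FABP3 and CRABP1, 4 and 8 neighbours were tested and none passed.

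**Figure D4:**
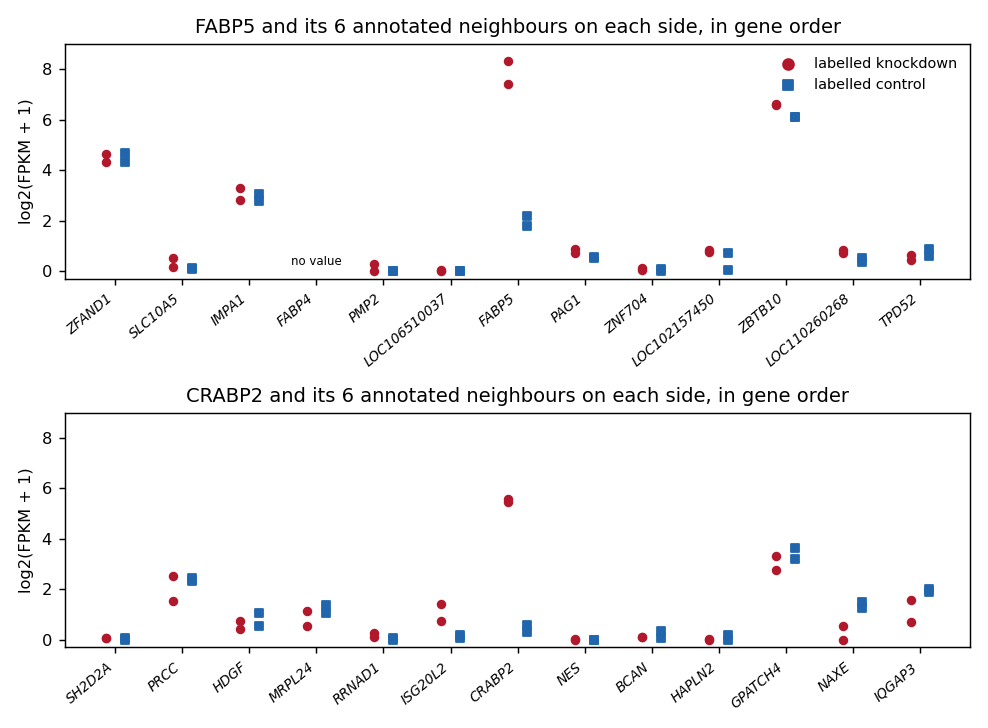
Levels, as log2(FPKM + 1), of FABP5 (top) and CRABP2 (bottom) and of the 6 annotated genes on each side, in gene order without distances; circles are labelled knockdowns and squares labelled controls. No tested neighbour passed the threshold. Among the untested ones, both labelled knockdowns lay above both labelled controls, at a low level, for several genes. These were ISG20L2 and RRNAD1 near CRABP2, and SLC10A5, PAG1, LOC102157450 and LOC110260268 near FABP5. NAXE and the tested IQGAP3, near CRABP2, had both below. Over all tested genes both lay above for 24.7% and below for 35.8%.

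The genes whose profile over the 4 libraries lay closest to the members were sought by the Euclidean distance of centred log2(FPKM + 1) values among the tested genes with a symbol. For FABP5 these were ARGFX (distance 0.384), TIMM8A (0.551) and STARD4 (0.947). For CRABP2 they were RSL24D1 (0.563), SF3B5 (0.582) and STARD4 (0.661). FABP5 and CRABP2 were 0.980 apart. With 4 libraries in 2 groups, such a distance mainly matches the size of the group difference.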

How the data were processed

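RNA from 4-cell pig embryos was sequenced in 4 libraries, 2 per group. The submitters' processing notes name StringTie 2.1.7, Bowtie2 2.3.5 and cutadapt with the Sscrofa11.1 assembly; the role of each, the annotation and any filter were not given in the sources used here. Per the file headers, the deposited table of 35395 transcript rows gives coverage, FPKM (scaled by the authors to length and library size) and TPM (scaled by the authors to a fixed sum) per library. No counts were used. Rows were named through RefSeq accessions (32816 rows, 4 more by another version), symbols used as IDs (2305) or the name column or ID (270), and FPKM was summed per gene. Coordinates are those of the RefSeq gene table. Reads shared with near-identical copies cannot be told apart in such a table.

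The 9850 genes averaging 1 FPKM or more entered a limma 3.58.1 fit (R 4.3.3, trended eBayes) of log2(FPKM + 1) on group alone, leaving 2 residual degrees of freedom; p-values are two-sided with Benjamini-Hochberg adjustment at 0.05. A gene low in one group could pass this filter through the other group alone. CRABP2, AREG and CPT1A passed it through the labelled knockdowns alone, and HDAC3 through the labelled controls alone. The code was tested on simulated data. Differences are labelled knockdown minus labelled control, and the scale understates those of low genes. Named genes were the members, each pathway list's genes past the threshold or otherwise its 3 highest, the 3 closest profiles, TFAP2C and the leading markers; other names were chosen after their values were seen. The members and lists were chosen with earlier results of these data known. Alternatives were another pseudocount, other filters, TPM, median-ratio scaling, transcript rows, names from the file, a replicate block and leaving out each library. Protein and promoter sequences were not used here.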

Additional observations from a re-analysis of the deposited data

How the results depend on the processing

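The log2 differences of the members kept their sign under every alternative tried. They ran from 5.42 to 6.34 for FABP5, 4.95 to 6.67 for CRABP2, 0.95 to 1.65 for FABP3 and 0.090 to 0.51 for CRABP1. CRABP1 fell under the minimum mean of 5 FPKM. The kept sign is no support for the differences. In FPKM the groups did not overlap for any of these genes, so leaving out a library could not turn it. Other filters, transcript rows, names from the file and the replicate block left each estimate unchanged. The median over all tested genes was -0.13, -0.37 with TPM and -0.005 after median-ratio scaling, and with the last scaling 1 of the 6 other nuclear receptors and 2 of the 4 retinoic acid targets had a positive difference, against none in FPKM as deposited.

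Counts over all genes depended on the setting. Against 503 genes higher and 144 lower in the labelled knockdowns, limma called 312 and 62 with a pseudocount of 0.1, 320 higher with a minimum mean of 5 FPKM, 70 and 34 on transcript rows, 77 lower after median-ratio scaling, and 0 and 0 with no filter (1930 and 1766 at an unadjusted p under 0.05). Leaving out each library in turn gave 0 to 479 higher and 0 to 47 lower, with 0 in both directions without labelled knockdown 1 or 2. Of the 3 calls among the other pathway genes (NCOA3, HDAC3 and CPT1A), 1 was left in some settings, a different gene each time. It was HDAC3 with TPM and CPT1A after median-ratio scaling. With a minimum mean of 5 FPKM it was NCOA3, and HDAC3 and CPT1A were not tested there. None was left with a pseudocount of 0.1, on transcript rows or with no filter (14, 12 and 19 at an unadjusted limma p under 0.05). The causes were not tested.

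The replicate number as a block gave 125 higher, 8 lower and 0 of the other pathway genes (13 unadjusted). Same-numbered libraries deviated with r = -0.143 across 9850 genes, so the numbers are not shown to pair the libraries. A crossed block, added after the data were seen, gave 611 higher, 119 lower and 1 of the other pathway genes. Depth limits the receptor rows, which rest on 0.259 to 6.54 reads per base where above 0.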
